A study of Mus musculus with 8 samples.

Results

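The axon guidance genes of the mouse aortic endothelium were taken as the probe sets with a single gene symbol that names a semaphorin, plexin, ephrin, Eph receptor, netrin, Unc5 receptor, Slit or Robo. By this rule on names there were 66 such probe sets, for 65 genes, among 30604 probe sets with 1 symbol on the array. The neuropilins were not counted among them. Of the 65 genes, 63 belong to 10 families, namely 19 semaphorins, 9 plexins, 5 ephrin-A and 3 ephrin-B ligands, 9 EphA and 4 EphB receptors, 3 netrins, 4 Unc5 receptors, 3 Slits and 4 Robos. The other 2, Unc50 and Unc5cl, match by name only and are not netrin receptors. Ephb1 had 2 probe sets, of which the one with the higher mean was used. Probe sets that name Sema4a or Ntn3 together with another gene were not counted.

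The 8 arrays each held RNA from the thoracic aorta of 1 female mouse, obtained by passing TRIzol through the lumen. Every animal, control or not, carried the tamoxifen-inducible recombinase Cdh5-CreERT2, driven by the VE-cadherin promoter of endothelial cells, together with floxed alleles of Mef2c (Mef2c f/f), a MADS-box transcription factor gene. The 4 EKO mice were given 5 daily injections of tamoxifen from 10 weeks of age. Their 4 control littermates were given the vehicle, sunflower seed oil containing 10% ethanol, and tissue was taken on day 14 counted from the first injection. Tamoxifen and the deletion therefore go together and cannot be told apart. Values are log2 expression (Affymetrix Mouse Transcriptome Array 1.0), and differences are EKO minus control on that scale. The single Mef2c probe set read 9.77 ± 0.11 in control and 9.75 ± 0.20 in EKO arrays (SD, n = 4 each) and covers the whole transcript cluster, so it does not check the deletion.

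Axon guidance proteins are cues that steer growing axons, and blood vessels use the same cues. Semaphorins signal through plexins, often with neuropilins as co-receptors, ephrins on one cell bind Eph receptors on its neighbour, netrins bind Unc5 receptors and DCC, and Slits bind Robos. In endothelium these systems are known for repelling or guiding sprouting cells, for separating arterial from venous cells through ephrin-B2 and EphB4, and for barrier control.

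None of the axon guidance genes passed the test between EKO and control. A gene was tested if it averaged more than 6.14, the middle value of the probe sets on the array, and 39 of the 65 did. Sema3c (6.18) was just inside that limit and Efna3 (6.11) just outside. With limma, 0 of these 39 had an adjusted p under 0.05 (0% of all 16232 genes tested), the smallest adjusted p being 0.499. At an unadjusted p under 0.05 there were 3 genes, or 7.69%, beside 8.93% of all genes tested, and without moderation of the variance there were 2. The 3 were Sema3d, Sema3f and Ntn1, each a secreted ligand and each lower in EKO arrays. Lower genes at that p made up 3.51% of all genes tested and 4.23% of the protein-coding ones, and higher genes 5.42% of all. In this fit 0 of the 16 tested receptors reached it, beside 3 of the 22 tested ligands. The receptor genes Plxnd1, Plxna4 and Unc5d each reached it in some of the other fits, and Plxnc1 without the level filter. Ligand genes changed between fits as well. Sema3f and Ntn1 each fell short of that p in some, and Slit2, Sema6d, Sema6b and Efnb1 each reached it in at least 1. The groups did not overlap for 1 gene, Ntn1, or 2.56%, beside 6.08% of all genes tested (3.41% higher and 2.67% lower, or 3.44% lower of the protein-coding ones).

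Family medians lay on both sides of 0, and no family was tested as a group. The median difference of the 39 genes was 0.00, with 20 higher and 19 lower (48.7% lower). Over all genes tested the median was -0.02 with 44.9% higher and 55.1% lower, and over the 11217 protein-coding ones -0.05 with 66.5% lower. Among the ligands 10 were higher and 12 lower, with a median of -0.02, and among the receptors 9 were higher and 7 lower, with a median of 0.01. By family the medians lay between -0.15 for the 2 tested Slits and 0.27 for the 2 tested Unc5 receptors. For the 13 semaphorins the median was -0.03 and for the 6 plexins -0.02. The single differences ranged from -1.10 for Sema3d to 0.53 for Unc5d.

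**Figure D1:**
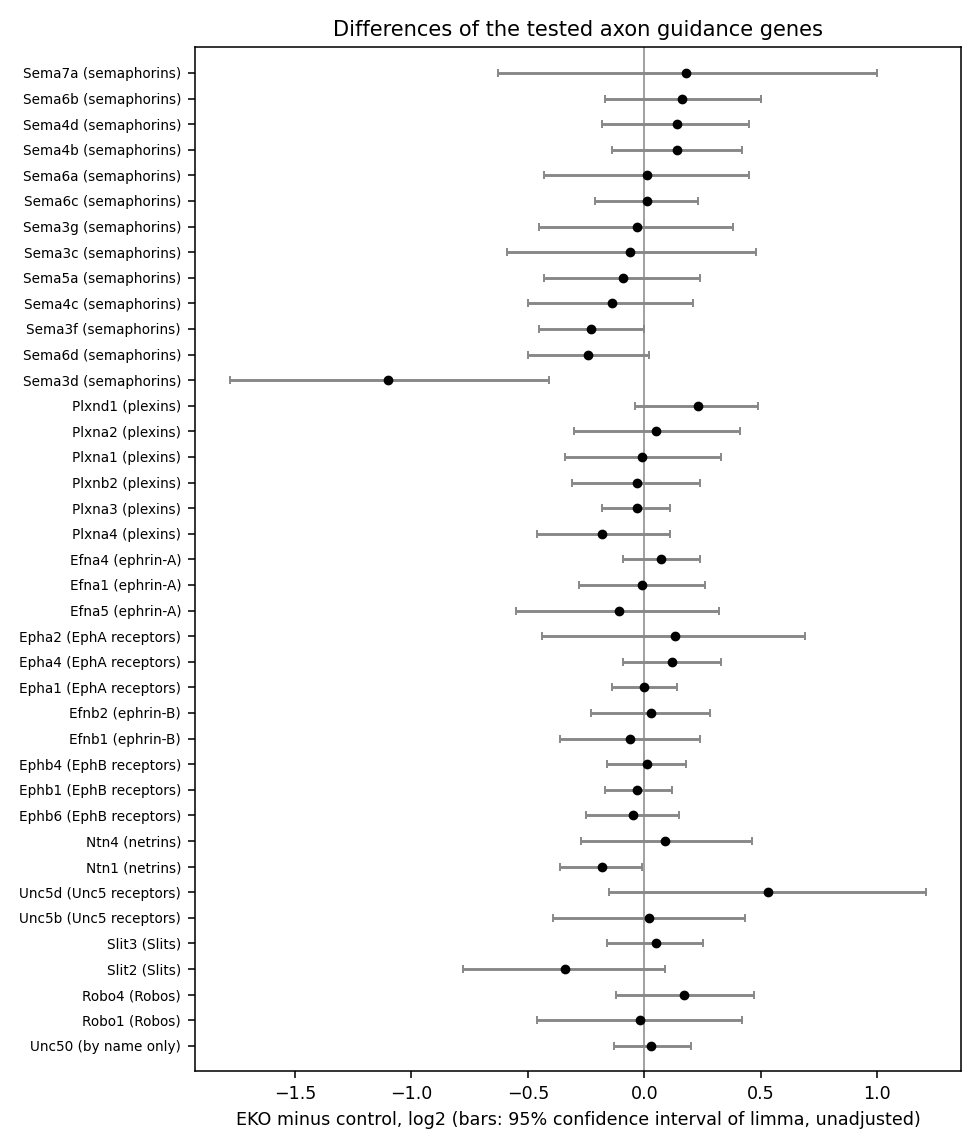
Difference between EKO and control (log2, x axis) for each of the 39 tested axon guidance genes, with the unadjusted 95% confidence interval from limma. Most intervals span 0. Sema3d, at -1.10, stands farthest from it, and Unc5d, at 0.53, is the highest.

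As a reference for low readings, the median of the array's own negative controls (marked neg) was 7.34 to 7.45. Of the 65 genes, 25 read above that median on all 8 arrays and 37 below it on all 8, with Slit2, Unc5b and Unc5d on both sides. The level filter of 6.14 lies below that median, and 25 of the 39 tested genes read above the neg median on all 8 arrays. No Slit or Unc5 receptor did, and these families had the lowest and the highest median difference. A reading below the neg median does not show that a gene is silent. Among the endothelial markers, Robo4 (6.25 over all arrays) and the VEGF receptor gene Kdr (6.81) read below it, whereas Pecam1 read 18.17 and Cdh5 16.41. Readings of different genes come from different probes and are not set against each other. In these bulk samples, fewer cells of a type and less RNA per cell cannot be told apart.

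**Figure D2:**
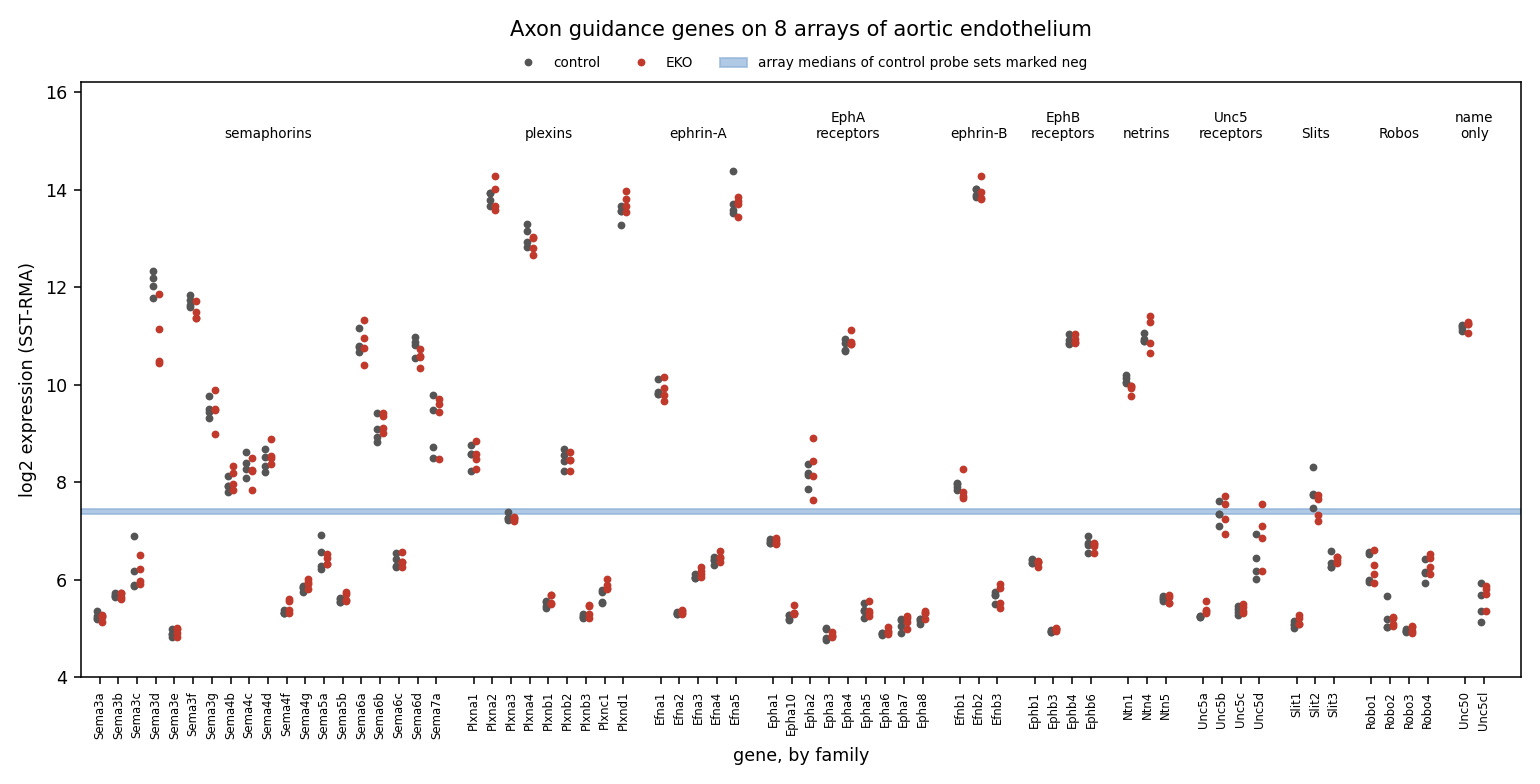
Log2 expression of the 65 axon guidance genes (x axis, by family, in alphabetical order) on 4 control and 4 EKO arrays, 1 point per array. The band marks the medians of the negative controls, 7.34 to 7.45. For most genes the points of the groups overlie each other, while 3 of the 4 EKO points of Sema3d lie below its control points.

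Sema3d had the smallest p and the largest difference of the axon guidance genes. It encodes a secreted class 3 semaphorin that acts on endothelial cells through neuropilin-1. It read 11.78, 12.34, 12.03 and 12.18 on control arrays, in the order of their replicate numbers, and 10.49, 10.44, 11.15 and 11.86 on EKO arrays. Of the 4 EKO arrays, 3 lay below all control arrays, and EKO array 4 lay above control array 1. The means were 12.08 ± 0.24 and 10.99 ± 0.67 (SD, n = 4), so that EKO minus control was -1.10 (SE 0.30), or 2.14-fold lower, with a 95% confidence interval of -1.78 to -0.41. It did not pass the threshold (limma unadjusted p = 0.00592, adjusted p = 0.499), and ranked 183 of the 16232 genes by p. Without EKO array 4 the difference was -1.39, and without EKO array 2 it was -0.92. It remained at an unadjusted p under 0.05 in each of the fits tried, and in none of them past the threshold (adjusted p 0.322 to 0.886).

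Markers of other cells of the vessel wall are given beside Sema3d because they varied between arrays too. The 7 measured fibroblast markers averaged 8.25 to 8.98 on control arrays and 8.0 to 8.57 on EKO arrays, with 6 of 7 lower in EKO arrays, 3 of 7 above the neg median on all arrays, and Col1a2 (6.91) among those below it. By EKO array they averaged 8.57, 8.0, 8.16 and 8.29. EKO array 2 was lowest for both Sema3d and these markers, whereas EKO array 1 was low for Sema3d and highest for the markers. Of the 7 markers 2 were lower at an unadjusted p under 0.05, with no overlap between the groups. They were Pi16 (-0.75, limma unadjusted p = 0.0219) and Col1a2 (-0.15, limma unadjusted p = 0.0471). Neither passed the threshold (adjusted p 0.53 and 0.552). Of all genes tested 3.51% were lower at that p and 2.67% were lower without overlap. The part of fibroblasts or other wall cells in the Sema3d values was not tested beyond the covariate fits that follow. With the fibroblast mean as a covariate the Sema3d difference was -1.06, with adipocyte markers -1.07, with smooth muscle markers -0.87, and with the signal contrast of the array (control probe sets marked pos minus neg) -0.77. That contrast was 3.39, 3.43, 3.59 and 3.51 on control arrays and 3.40, 3.19, 3.34 and 3.53 on EKO arrays. For both the contrast and Sema3d, EKO array 2 was the lowest and EKO array 4 the highest of the EKO arrays. EKO arrays 1 and 3 stood in opposite order. Control array 1 was the lowest control array for both, whereas the highest control array differed. The part of the contrast was not tested beyond that fit. The 11 measured endothelial markers averaged 12.95 to 13.15 on control and 12.92 to 13.17 on EKO arrays. Single markers could vary more than this mean. Over the 8 arrays Emcn read 8.18 to 10.85 and Cldn5 15.53 to 17.27, whereas Pecam1 stayed within 18.07 to 18.23. The list also holds Robo4, itself a guidance gene.

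**Figure D3:**
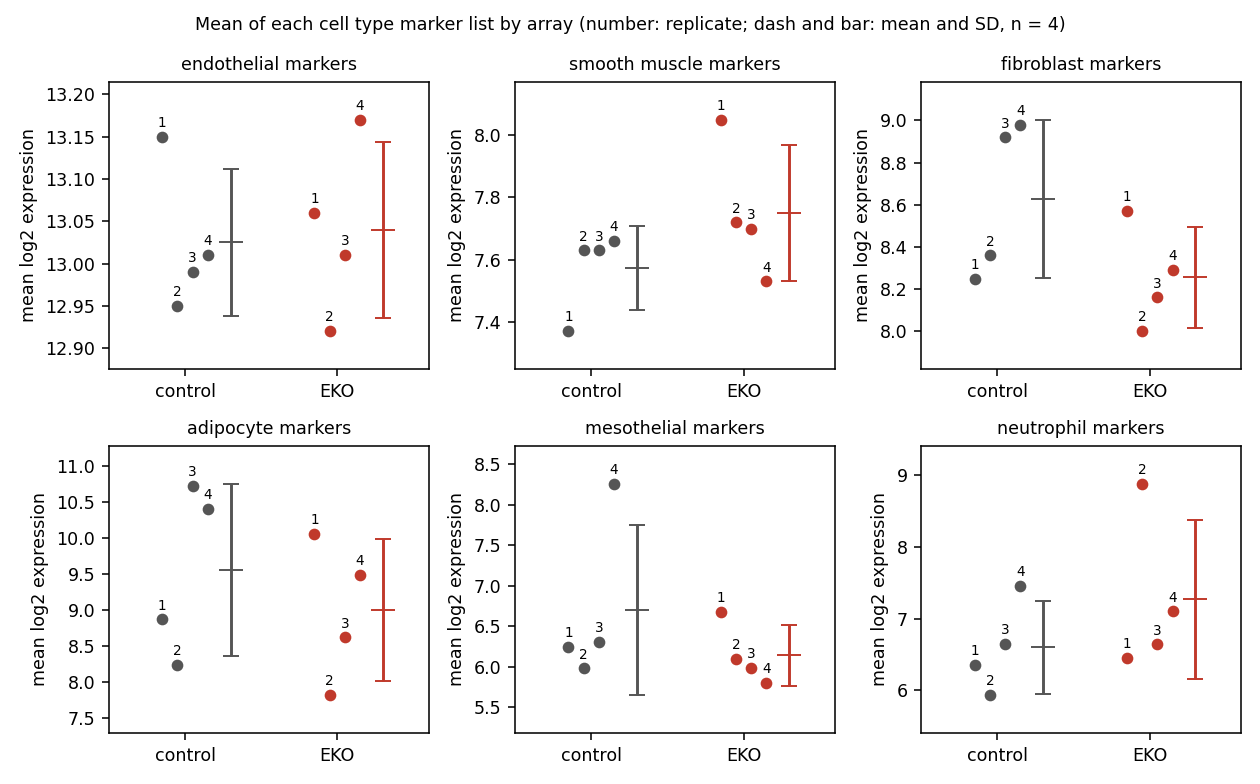
Mean log2 expression of 6 cell type marker lists on each array, with replicate numbers, and group mean and SD (n = 4). Endothelial means stay within 12.92 to 13.17, whereas adipocyte means run from 7.82 to 10.72, mesothelial markers stand apart on control array 4 (8.26) and neutrophil markers on EKO array 2 (8.88).

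The promoter of Sema3d and that of Sema6d are printed because Mef2c is the factor deleted and these are, respectively, the guidance gene with the largest difference and the only one whose window holds the MEF2 consensus. The windows are RefSeq promoters (GRCm38.p6), from 250 bases before to 50 after a gene's start, and 56 of the 65 genes had at least 1, in 69 windows. The 10-base MEF2 consensus, which reads the same on both strands, was found in 1 of the 69 windows and in 3.19% of all 32851 windows. A match is a run of letters and not a measured site, and a window without one says nothing about binding elsewhere. Sema3d lies at chr5:12382916-12383215 (plus strand) and has no match. The Sema6d window at chr2:124089719-124090018 (plus strand) has its match, in capitals, starting 230 bases before the start of the gene.
Sema3d: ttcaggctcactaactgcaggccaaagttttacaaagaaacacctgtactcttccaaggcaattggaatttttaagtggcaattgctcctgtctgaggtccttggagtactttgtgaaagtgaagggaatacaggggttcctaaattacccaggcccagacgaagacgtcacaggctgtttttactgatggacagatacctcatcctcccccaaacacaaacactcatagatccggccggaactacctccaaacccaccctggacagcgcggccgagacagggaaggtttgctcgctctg
Sema6d: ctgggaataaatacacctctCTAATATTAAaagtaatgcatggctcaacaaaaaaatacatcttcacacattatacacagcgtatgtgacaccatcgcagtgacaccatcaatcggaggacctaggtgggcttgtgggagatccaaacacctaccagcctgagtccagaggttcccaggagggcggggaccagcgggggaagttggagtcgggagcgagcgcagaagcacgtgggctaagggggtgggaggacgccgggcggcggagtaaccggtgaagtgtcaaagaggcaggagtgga

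Sema6d, a transmembrane semaphorin that binds class A plexins, was thus named for its promoter and not by the rule for naming genes. It was added after its values were seen. It read 10.97, 10.88, 10.54 and 10.81 on control arrays and 10.58, 10.57, 10.73 and 10.35 on EKO arrays. The groups overlapped, because control array 3 was low. The difference was -0.24 (SE 0.12, limma unadjusted p = 0.0670, adjusted p = 0.577). The unadjusted p fell under 0.05 with adipocyte markers, fibroblast markers or the signal contrast as a covariate. It also did so without control array 3 or without EKO array 3. After quantile normalization the difference was -0.21 (limma unadjusted p = 0.129). Fits with smooth muscle markers as a covariate and with the replicate number as a block gave limma unadjusted p-values of 0.126 and 0.111. Array weights gave 0.131, and centring on the array median 0.147. A second Sema6d window, at a later start on the same chromosome, holds no match.

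Sema3f, the secreted ligand of neuropilin-2, was the other semaphorin at an unadjusted p under 0.05. It read 11.60, 11.74, 11.85 and 11.64 on control arrays and 11.71, 11.37, 11.37 and 11.49 on EKO arrays. EKO array 1 lay within the control range and the other 3 below it. The means were 11.71 ± 0.11 and 11.48 ± 0.16 (SD, n = 4), a difference of -0.23 (SE 0.10, limma unadjusted p = 0.0484, adjusted p = 0.557). With the fibroblast markers as a covariate it was -0.12, and with those of smooth muscle -0.32.

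The remaining tested semaphorins differed by -0.14 to 0.18. These included the arterial ligand Sema3g (9.51 ± 0.19 in control and 9.47 ± 0.37 in EKO arrays), the plexin B ligand Sema4d (8.44 ± 0.21 and 8.57 ± 0.22), and Sema4c, Sema4b, Sema6a and Sema6b, with n = 4 in each group. Sema7a, a membrane-anchored semaphorin that binds plexin C1 and integrins, had the highest SD pooled over both groups among the tested guidance genes, although the EKO arrays of Sema3d alone spread more (SD 0.67). It read 8.72, 8.49, 9.48 and 9.80 on control arrays and 9.45, 9.61, 8.47 and 9.70 on EKO arrays. In either group some arrays were low and others clearly higher, and the pooled SD of 0.60 exceeded that of 97.1% of the genes tested. Its difference of 0.18 (95% confidence interval -0.63 to 1.00) was therefore loosely fixed.

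Sema3c, another secreted class 3 semaphorin, stood apart on control array 4, as did the mesothelial markers. It read 5.88, 5.89, 6.18 and 6.89 on control arrays and 6.5, 6.22, 5.97 and 5.92 on EKO arrays. The 5 mesothelial markers averaged 6.25, 5.98, 6.31 and 8.26 on control arrays and 6.68, 6.10, 5.99 and 5.80 on EKO arrays. Control array 4 was highest and EKO array 1 second for both. None of these 5 markers read above the neg median on all arrays, Upk3b reaching 11.52 on control array 4, and their part in the Sema3c values was not tested. Sema5a, a semaphorin with thrombospondin repeats, was also highest on control array 4 (6.91, against 6.23 to 6.57 on the other control arrays).

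Of the plexins, the receptors of semaphorins, 6 of 9 were tested, 2 higher and 4 lower. Plxnd1, the endothelial receptor of Sema3e, had the smallest p. It read 13.28, 13.56, 13.57 and 13.67 on control arrays and 13.55, 13.80, 13.66 and 13.97 on EKO arrays. Control array 1 was low, and EKO arrays 2 and 4 lay above all controls. The difference was 0.23 (SE 0.12, limma unadjusted p = 0.0850, adjusted p = 0.597; interval -0.04 to 0.49), and without control array 1 it was 0.15. Its ligand Sema3e was below the neg median on all arrays (4.82 to 5.01).

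Plxna4 and Plxna2, receptors for class 3 and class 6 semaphorins, overlapped between the groups. Plxna4 read 12.83, 13.29, 12.93 and 13.16 on control arrays and 13.00, 12.81, 13.03 and 12.67 on EKO arrays, a difference of -0.18 (SE 0.12, limma unadjusted p = 0.194, adjusted p = 0.664). It was -0.10 without control array 2, -0.11 without EKO array 4 and -0.30 with smooth muscle markers as a covariate (unadjusted p = 0.0441). For Plxna2 the values were 13.93, 13.94, 13.78 and 13.67 on control arrays and 14.28, 13.58, 14.01 and 13.66 on EKO arrays. The EKO arrays of Plxna2 spread more (SD 0.32) than the control arrays (SD 0.13), around nearly the same mean. Plxna1, Plxna3 and Plxnb2 differed by -0.03 to -0.01.

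**Figure D4:**
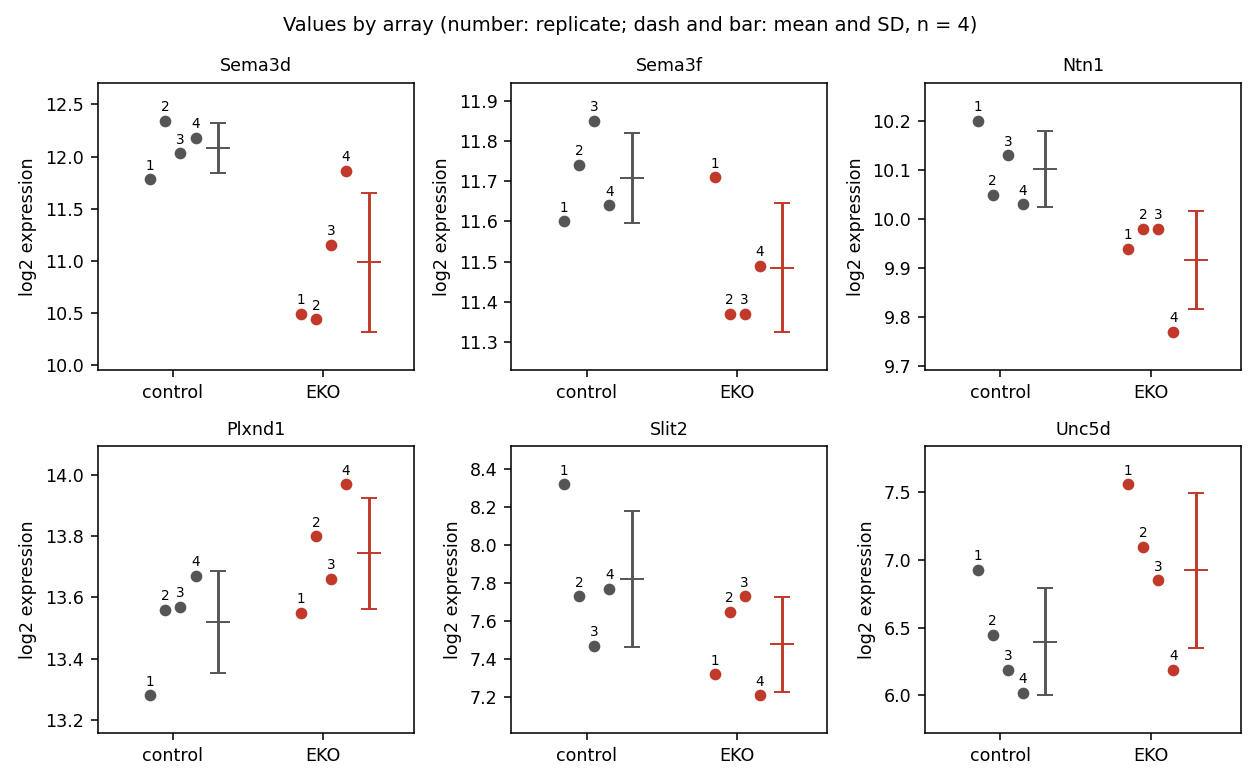
Log2 expression by array of Sema3d, Sema3f, Ntn1, Plxnd1, Slit2 and Unc5d, with replicate numbers, and group mean and SD (n = 4). Only the Ntn1 groups do not overlap among these 6, at 10.03 to 10.20 in control and 9.77 to 9.98 in EKO arrays.

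Netrins are secreted proteins related to laminins. Ntn1 read 10.20, 10.05, 10.13 and 10.03 on control arrays and 9.94, 9.98, 9.98 and 9.77 on EKO arrays. All 4 EKO arrays lay below all 4 control arrays, by a small margin. The means were 10.10 ± 0.08 and 9.92 ± 0.10 (SD, n = 4), which is -0.18 (SE 0.08) or 1.14-fold lower, with a 95% confidence interval of -0.36 to -0.01 (limma unadjusted p = 0.0389, adjusted p = 0.550). After quantile normalization the difference was -0.15 and the unadjusted p 0.124.

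Ntn4, a netrin of basement membranes, varied more among the EKO arrays. It read 10.94, 11.06, 10.90 and 10.90 on control arrays and 10.65, 11.40, 10.85 and 11.28 on EKO arrays. The EKO values enclosed all control values, with an SD of 0.36 against 0.08, and the difference of 0.09 (SE 0.16) had a limma unadjusted p of 0.575 and an adjusted p of 0.859.

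Of the Unc5 receptors, which bind netrins, Unc5d and Unc5b were tested. Unc5d had the highest difference of the guidance genes, from values that lay mostly below the neg median. It read 6.93, 6.45, 6.19 and 6.02 on control arrays and 7.56, 7.10, 6.85 and 6.19 on EKO arrays. The ranges overlapped, EKO array 4 falling among the controls. The means were 6.40 ± 0.40 and 6.92 ± 0.57 (SD, n = 4), a difference of 0.53 (SE 0.30, limma unadjusted p = 0.111, adjusted p = 0.617). It was 0.77 without EKO array 4, 0.32 without EKO array 1, and 0.23 with the signal contrast as a covariate.

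Unc5b, the netrin receptor of endothelial tip cells, read 7.10, 7.62, 7.35 and 7.34 on control arrays and 7.72, 7.25, 7.56 and 6.94 on EKO arrays. The groups overlapped around a difference of 0.02 (SE 0.18, limma unadjusted p = 0.920, adjusted p = 0.977). With smooth muscle markers as a covariate the difference was -0.21. Those 9 markers averaged 7.37, 7.63, 7.63 and 7.66 on control arrays and 8.05, 7.72, 7.70 and 7.53 on EKO arrays, with 3 of 9 above the neg median on all arrays and Myh11 (6.91) below it. Unc5b and these markers had the same lowest control array and the same highest and lowest EKO arrays, but not the same order on the others, Unc5b being highest on control array 2 and the markers on control array 4. The part of smooth muscle cells in the Unc5b values was not tested beyond that fit.

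Slit2, a secreted ligand of Robo receptors, lay at about the neg median. It read 8.32, 7.73, 7.47 and 7.77 on control arrays and 7.32, 7.65, 7.73 and 7.21 on EKO arrays. Control array 1 stood high and the other values overlapped. The difference was -0.34 (SE 0.19, limma unadjusted p = 0.106, adjusted p = 0.613). Without control array 1 it was -0.18, and with the fibroblast markers as a covariate -0.60 (unadjusted p = 0.0100). Slit3 read 6.27, 6.27, 6.34 and 6.60 on control arrays and 6.46, 6.47, 6.41 and 6.34 on EKO arrays, a difference of 0.05 (SE 0.09).

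The Robo family includes the receptors of Slits, and its 2 tested members read below the neg median on every array. Robo4, the endothelial member, read 6.43, 6.16, 5.93 and 6.15 on control arrays and 6.54, 6.45, 6.26 and 6.11 on EKO arrays. For Robo1 the values were 6.53, 6.57, 5.96 and 5.99 on control arrays and 6.31, 6.11, 6.62 and 5.94 on EKO arrays. Both overlapped between groups. The differences were 0.17 (SE 0.13, limma adjusted p = 0.681) for Robo4 and -0.02 (SE 0.19, limma adjusted p = 0.980) for Robo1, the latter changing sign under several settings. Robo4 was 0.09 without control array 3, 0.11 without EKO array 1, 0.26 without control array 1 and 0.03 with the signal contrast as a covariate.

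Efnb2, the ephrin-B ligand that marks arterial endothelium, was close between the groups. It read 13.85, 14.01, 14.01 and 13.89 on control arrays and 13.96, 13.81, 13.82 and 14.28 on EKO arrays. Its receptor Ephb4 read 11.05, 10.84, 10.91 and 10.86 on control arrays and 10.88, 10.93, 11.04 and 10.86 on EKO arrays. The differences were 0.03 (95% confidence interval -0.23 to 0.28) and 0.01 (-0.16 to 0.18).

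Efnb1, the other tested ephrin-B ligand, read 7.91, 7.84, 7.99 and 7.96 on control arrays and 8.27, 7.71, 7.81 and 7.68 on EKO arrays. EKO array 1 lay above the controls and the other 3 below them, for a difference of -0.06 (SE 0.13, limma adjusted p = 0.896), which became 0.08 with the fibroblast markers as a covariate. The receptor Ephb1 and the kinase-inactive Ephb6 read below the neg median on all arrays. For Ephb6 the values were 6.55, 6.89, 6.76 and 6.72 on control arrays and 6.55, 6.75, 6.69 and 6.73 on EKO arrays, a difference of -0.05 (SE 0.09, limma adjusted p = 0.859). Ephb1 lay between 6.34 and 6.42 on control arrays and between 6.26 and 6.39 on EKO arrays, a difference of -0.03 (SE 0.06, limma adjusted p = 0.900). Both overlapped between the groups.

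The ephrin-A ligands are anchored to the outer face of the cell membrane. Efna5 read 13.59, 14.39, 13.70 and 13.53 on control arrays and 13.77, 13.44, 13.85 and 13.70 on EKO arrays. Control array 2 was high and the rest overlapped, and the difference of -0.11 (SE 0.19, limma adjusted p = 0.853) was 0.08 without that array. Efna1, a ligand of EphA2 induced by inflammatory cytokines, read 9.82, 10.12, 9.86 and 9.81 on control arrays and 9.80, 9.94, 9.67 and 10.16 on EKO arrays, a difference of -0.01. Efna4 read 6.40, 6.46, 6.41 and 6.31 on control arrays and 6.37, 6.59, 6.45 and 6.47 on EKO arrays, and differed by 0.07 (SE 0.07, limma adjusted p = 0.745).

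Of the EphA receptors 3 of 9 were tested. Epha4, which binds ephrins of both classes, read 10.94, 10.86, 10.69 and 10.72 on control arrays and 11.13, 10.88, 10.84 and 10.84 on EKO arrays. The groups overlapped, with EKO array 1 highest, and the difference was 0.12 (SE 0.09, limma unadjusted p = 0.232, adjusted p = 0.688). Without EKO array 1 it was 0.05, and without control array 3 it was 0.08. Epha2, the receptor of Efna1, read 8.19, 7.87, 8.15 and 8.38 on control arrays and 8.91, 7.63, 8.43 and 8.12 on EKO arrays. Here EKO arrays 1 and 2 were the highest and the lowest of all 8, the difference was 0.13 (SE 0.25, limma adjusted p = 0.880), which turned to -0.09 when EKO array 1 was left out and became 0.34 when EKO array 2 was. As a covariate, smooth muscle markers gave -0.08, adipocyte markers 0.27, the signal contrast 0.31 and fibroblast markers 0.43.

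The 26 guidance genes under the level filter had means of 4.88 to 6.11. Of these, 21 were higher in EKO arrays (80.8%), with a median difference of 0.07. The same held for genes under the filter in general, of which 76.3% were higher with a median of 0.07. In a fit without the filter 1 of the 26, Plxnc1, the receptor of Sema7a, had an unadjusted p under 0.05 (0.24, SE 0.09, limma unadjusted p = 0.0254, adjusted p = 0.546), or 3.85%, beside 8.43% of all genes under the filter and 9.03% of all genes in that fit. Its means were 5.65 ± 0.14 for control and 5.89 ± 0.10 for EKO (SD, n = 4). The groups did not overlap for Plxnc1, Epha10 and Unc5a, or 11.5% of the 26, beside 5.71% of all genes under the filter. Each of the 3 was higher in EKO arrays, as were 725 of the 790 genes under the filter without overlap. Those 725 are 5.24% of all genes under the filter.

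Partner genes that are not named for these families were taken as 2 lists. In the list of co-receptors, adhesion partners and adaptors 29 of 31 genes were measured and 16 tested. Of the 16, 3 were higher and 13 lower, with a median of -0.11. Of these 0 passed, and at an unadjusted p under 0.05 there were 1 higher and 2 lower. At that p 5.42% of all genes tested were higher and 3.51% lower, and 55.1% were lower at any p (66.5% of the protein-coding ones). The groups did not overlap for Itgb1 (-0.07) and Pick1 (-0.15), both lower. Of all genes tested 2.67% were lower without overlap, and of the protein-coding ones 3.44%. Nrp2, the co-receptor of Sema3f, read 6.36, 7.19, 7.01 and 6.48 on control arrays and 7.46, 7.21, 6.93 and 7.34 on EKO arrays. These values lay near or below the neg median, control arrays 1 and 4 were low and the rest overlapped, for a difference of 0.48 (SE 0.20, limma unadjusted p = 0.0434, adjusted p = 0.552). With the mean of its probe sets Nrp2 differed by 0.27 (limma unadjusted p = 0.0646), and without control array 1 by 0.34 (limma unadjusted p = 0.115). The heparan sulphate proteoglycan Sdc4 (-0.28, SE 0.09, adjusted p = 0.511) and the adhesion molecule L1cam (-0.31, SE 0.10, adjusted p = 0.514) were the lower ones at an unadjusted p under 0.05 in limma. The netrin receptor neogenin, Neo1, differed by -0.29 (SE 0.18), by -0.13 without control array 4 and by -0.12 with fibroblast markers as a covariate. Nrp1 and Ntng2 had no probe set with 1 symbol and could not be analysed.

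In the list of cytoplasmic effectors 52 of 57 genes were measured and 44 tested. Of the 44, 13 were higher and 31 lower. Their median was -0.05, that of protein-coding genes in general. With limma 0 passed and 2 were at an unadjusted p under 0.05, both lower and both without overlap between the groups. Of all genes tested 3.51% were lower at that p and 2.67% were lower without overlap. Farp1, an exchange factor that acts with plexins of class A, read 10.16, 10.33, 10.31 and 10.42 on control arrays and 9.85, 9.94, 9.99 and 10.07 on EKO arrays. All EKO arrays lay below all control arrays, and the difference was -0.35 (SE 0.08, limma unadjusted p = 0.00223, adjusted p = 0.478). Arhgef11, a RhoA exchange factor that binds plexins of class B, differed by -0.29 (SE 0.08, limma unadjusted p = 0.00575, adjusted p = 0.499), and Limk2, a kinase of cofilin, by -0.14 (SE 0.06).

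Nerve and glial genes were looked at because guidance genes are also expressed there. Of 8 neuron markers 1, Stmn2 (10.74), read above the neg median on all arrays, and the list averaged 5.69 to 5.81 on control and 5.69 to 5.93 on EKO arrays. Of 5 measured Schwann cell markers 1, Mal (11.73), did so, and Sox10 read 5.61. The part of such cells in the guidance genes was not tested.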

How the data were processed

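The deposited values are log2 expression per probe set. The authors summarized the arrays by SST-RMA, using Expression Console, per the labels. All 8 columns were matched to samples by title. Of 72688 probe sets, 30604 had 1 symbol in the platform annotation, 2146 had several, 33206 were unlisted there and 6732 were controls. Symbols were updated through RefSeq (GRCm38.p6), which changed no guidance gene. A gene with several probe sets was read from the one with the highest mean. The level filter left 16232 genes, and no guidance gene passed it through 1 group alone.

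Control and EKO were tested in limma 3.58.1 under R 4.3.3 (lmFit and eBayes, without covariates). Benjamini-Hochberg adjustment ran over all genes tested, with a threshold of 0.05. Correlations between arrays were 0.981 to 0.993. With 4 arrays a group, the number of arrays sets the precision. The limma p-values set a difference only against the spread between these samples, moderated over all genes tested.

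Alternatives changed the filter, the normalization, the moderation, the array weights, the probe set rule, the covariate, the block and the arrays included. Genes shown by array are, per family, the 2 tested ones with the smallest p and the 2 with the highest mean. Of these, Ephb1 is given by its ranges only. Sema3c, Sema5a, Sema7a, Sema6d and Plxnc1 were added after their values were seen, Sema5a and Plxnc1 without the value of every array. The members and lists were chosen with earlier results of these data known.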

Additional observations from a re-analysis of the deposited data

Results flagged for a closer look

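In 3 of the 78 groups of 4 arrays looked at, 1 array lay far from the rest for the range of its group (Dixon's test at 95%). About 1 in 20 groups is marked so by chance. For Epha4 it was EKO array 1, at 11.13, while the remaining EKO arrays lay between 10.84 and 10.88. For Ephb1 it was EKO array 4, at 6.26, below the range of 6.37 to 6.39. For Efna1 it was control array 2, at 10.12, above the range of 9.81 to 9.86.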

How the results depend on the processing

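Under every alternative 0 guidance genes and 0 partner genes passed the threshold, also at 0.10 for guidance genes. The count at an unadjusted p under 0.05 (3) ran from 1 (quantile normalization, where Sema3d alone was left) to 4, and from 2 to 4 with single arrays left out. With the replicate block it was 3, namely Sema3d (-1.10), Plxnd1 and Unc5d (limma unadjusted p = 0.00390). The labels state no pairing of arrays. Over all genes tested, same-numbered arrays deviated with correlations of -0.16, 0.21, -0.24 and 0.13. These do not settle whether such arrays were matched, and Unc5d itself fell with replicate number in both groups. Sema3d ranged from -1.10 to -0.77, and from -1.39 to -0.92 with single arrays left out. The Slit median (-0.15) was 0.05 without the level filter (3 Slits) and -0.34 with the filter at the neg median (1 Slit). Some small differences changed sign, and the cause was not tested beyond the covariate named: Slit3 (-0.01 by quantile normalization and with smooth muscle markers), Ephb1 (0.01 centred on the array median), Robo1 (0.02 centred, 0.08 with array weights), Epha2 (-0.08) and Unc5b (-0.21) with smooth muscle markers, Unc5b (-0.03) with the signal contrast, Efnb1 with adipocyte (0.00) or fibroblast markers (0.08), and Ntn4 with fibroblast markers (-0.06). With single arrays left out Unc5b ran from -0.10 to 0.16, Efnb2 from -0.08 to 0.08, Robo1 from -0.14 to 0.09, Efna5 from -0.21 to 0.08, Ephb6 from -0.11 to 0.00, Epha2 from -0.09 to 0.34, Ntn4 from -0.03 to 0.23, Ephb1 from -0.04 to 0.00 and Efnb1 from -0.19 to 0.00. The fibroblast covariate was chosen after seeing the data.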
